A study of Mus musculus with 4 samples.

Results

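Secretory and membrane proteins enter the endoplasmic reticulum (ER) through the Sec61 translocon, lose their signal peptide to the signal peptidase, and are folded there by chaperones, thiol oxidoreductases and prolyl isomerases. Chains that do not fold are sent back to the cytosol for destruction. When unfolded chains accumulate, the sensors Ern1 (IRE1), Atf6 and PERK start the unfolded protein response, in which IRE1 splices the Xbp1 mRNA and the transcription factors XBP1, ATF6 and ATF4 raise the genes of these machineries. In the spleen, antibody-secreting plasma cells are known for a large ER and high XBP1 activity.

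This gene set was followed in spleens of mice lacking Snd1, which codes for an RNA-binding protein of the Tudor-SN type. It holds 43 genes picked by symbol: 18 chaperones and folding enzymes, 10 translocon and signal peptidase genes, 8 degradation genes, and 7 sensors and transcription factors. The array had probes annotated to 16593 genes, among them 40 of the 43, with 61 probes. Dnajb11, Sdf2l1 and Atf6 had no probe annotated to them, so their expression was not analysed here. A probe was taken as detected where its detection p fell under 0.05, and it was tested where this held for both KO arrays or both WT arrays. In all, 32 genes were tested. The probe that stands for each was detected on both arrays of both groups, so no gene entered through 1 group alone. Hspa5, Canx, Manf, Ssr1, Spcs2, Derl1 and Ern1 were not above background on any array, and Hyou1 was detected on 1 array of each group.

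Total RNA came from spleens of female mice aged 8 to 12 weeks per the labels (8 weeks in the description of the array samples), 2 Snd1 KO and 2 WT, each on its own Illumina MouseRef-8 v2.0 bead array. In the KO mice the first exon of Snd1 was removed between loxP sites by Cre in the germline, in a line made in R1 embryonic stem cells and backcrossed to C57BL/6N. The WT mice were littermates from heterozygous parents. The study calls the samples biological duplicates, and p-values measure only the spread between these 4 arrays.

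One known route by which the unfolded protein response reaches its targets is the ER stress response element (ERSE), which ATF6 and XBP1 bind together with NF-Y. It reads CCAAT, any 9 bases, then CCACG, and it was looked for on both strands of RefSeq promoter windows (assembly GRCm38.p6, 250 bases before to 50 after the gene start). Of the 43 genes, 35 matched a window, and 9 of these (25.7%) held the element. Over all genes with windows it was in 37 of 27025 (0.137%), or 0.119% of all windows of this length. The 43 genes were picked for ER and unfolded protein response roles, so a higher share among them was partly set by that choice. The matches are shown because the element links members of different roles; each is written in the direction of the motif, with the fixed bases in capitals.
Hspa5: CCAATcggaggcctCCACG
Hsp90b1, distal: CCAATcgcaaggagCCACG
Hsp90b1, proximal: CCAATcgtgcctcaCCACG
Calr: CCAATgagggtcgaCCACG
Canx: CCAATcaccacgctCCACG
Pdia6: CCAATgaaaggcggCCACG
Dnajc3: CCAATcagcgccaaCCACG
Creld2: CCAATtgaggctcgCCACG
Derl3: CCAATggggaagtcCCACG
Syvn1: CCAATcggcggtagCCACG
The windows were chr2:34771840-34772139 (plus strand) for Hspa5, chr10:86705395-86705694 (minus strand) for Hsp90b1, chr8:84846882-84847181 (minus strand) for Calr, chr11:50325624-50325923 (minus strand) for Canx, chr12:17266339-17266638 (plus strand) for Pdia6, chr14:118937682-118937981 (plus strand) for Dnajc3, chr15:88819396-88819695 (plus strand) for Creld2, chr10:75893148-75893447 (plus strand) for Derl3 and chr19:6046326-6046625 (plus strand) for Syvn1. The element began 44 bases before the start in Syvn1, 65 in Hspa5, 98 in Pdia6 and 105 in Dnajc3, and lay farther away in the rest, up to 212 bases in the distal copy of Hsp90b1. In Calr, Creld2, Derl3 and the proximal copy of Hsp90b1 it ran against the direction of the gene.

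Related elements were rarer among these genes. The ERSE-II element (ATTGG, any base, then CCACG) was in Dnajb11 and Herpud1, and in 0.037% of all windows. The unfolded protein response element TGACGTGG was in Txndc5 and Txndc11, and in 0.676% of windows. The ATF4-type element TGATGCAA was in Herpud1 only, and in 0.895% of windows. CCACG is shared by both ERSE forms and is contained in the reverse complement of TGACGTGG, so the searches are not independent. A match describes the sequence and is not evidence of binding.

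The 4 arrays had median signals of 112 to 114 and 12396 to 12908 detected probes. The Snd1 probe read 4.45 and 4.58 on the KO arrays, where it was not above background, and 6.71 and 7.09 on the WT arrays (normalized log2 intensity), which makes it at least 3.87-fold lower in KO (limma adjusted p = 0.0869). The direction of this difference matches the KO and WT labels. The sources used here do not give the probe's place relative to the deleted exon, so whether it reads the deleted sequence is not known. Markers of B cells, T cells and red pulp macrophages were detected on each array for 7 of 7, 5 of 5 and 6 of 7 of the genes with probes. Genes listed as markers of other tissues stood out on the KO arrays. Exocrine pancreas genes were detected for 19 of 21 on KO replicate 1 and for 4 on each of the other 3 arrays, and their summed background-corrected intensity was 7737 and 397 in KO replicates 1 and 2, and 588 and 446 in WT replicates 1 and 2. Liver genes were detected for 9 and 8 of 12 on KO replicates 1 and 2, and for 1 and 0 on the WT arrays. Adipocyte genes were detected for 2 and 4 of 7 on the KO arrays and for 0 on both WT arrays. KO replicate 1 is therefore set apart from KO replicate 2 in what follows. Across all probes, 2 of 12493 (0.016%) passed the adjusted threshold of 0.05.

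Of the 32 tested ER genes, 24 (75%) had a higher mean in KO and 8 a lower one, where 50.7% of the 8712 genes tested had a higher mean in KO. The median KO minus WT difference was 0.32 on the log2 scale over the tested members and 0.16 over all 40 on the array, against 0.0041 over all genes tested. Both KO arrays read above both WT arrays for 18 members (56.25%), against 20.6% of all genes, and below both for 3, against 17.6% of all genes. None passed the adjusted threshold in limma, the smallest adjusted p being 0.682 for Pdia4. At an unadjusted p under 0.05 there were 8 members higher in KO (25%), against 3.49% of all genes, and 0 lower, against 2.51% of all genes. Without KO replicate 1 the median of the members was 0.21, and without KO replicate 2 it was 0.41. More cells of a type and more RNA per cell cannot be told apart in whole spleen.

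**Figure D1:**
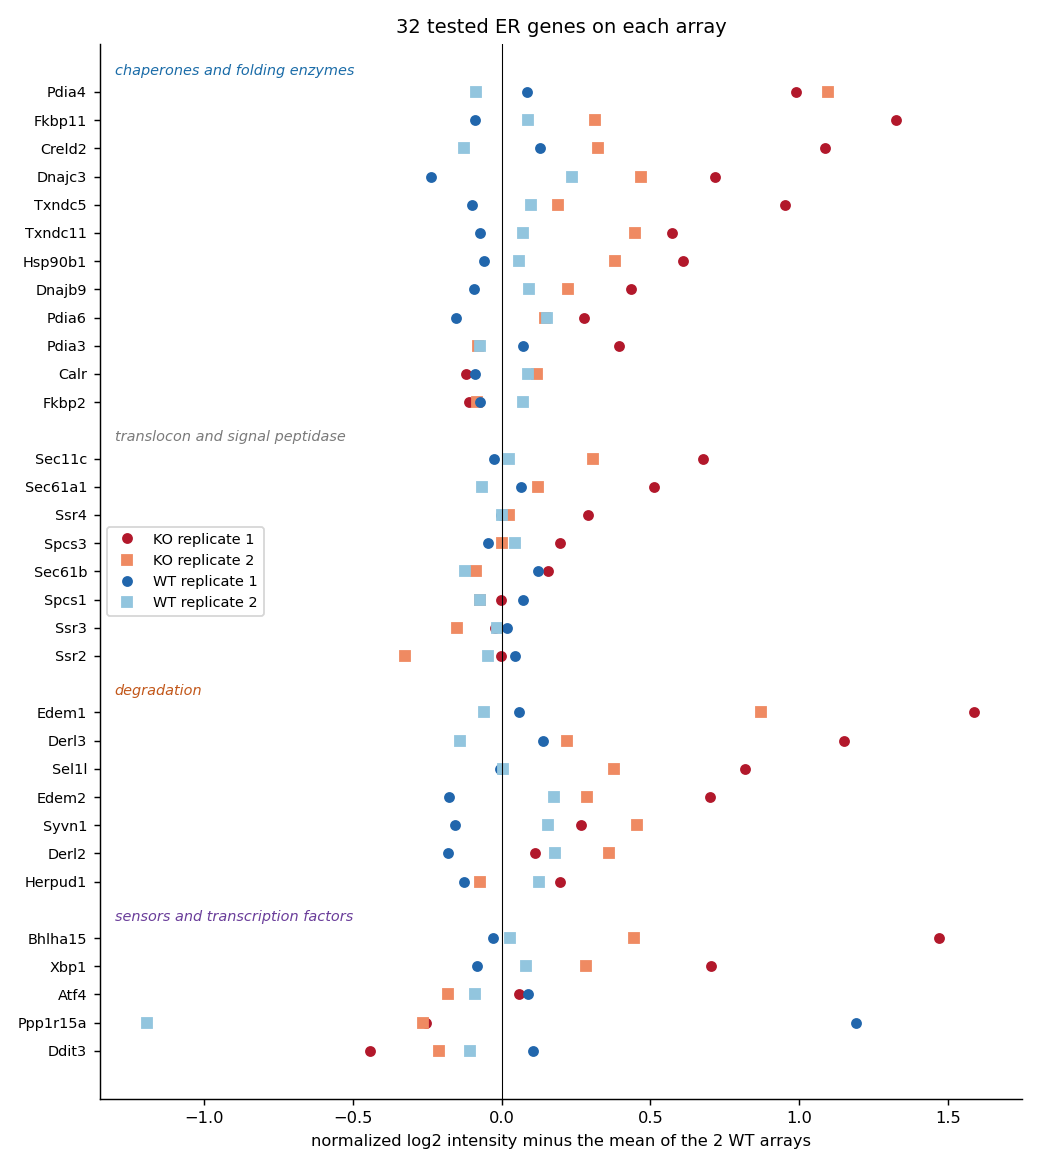
Normalized log2 intensity of each of the 32 tested ER genes on each array, minus the mean of the 2 WT arrays (x axis), with genes grouped by role down the page and 1 point per array. The KO points lie to the right of both WT points for 18 genes, and KO replicate 1 lies to the right of KO replicate 2 for 26.

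The chaperones and folding enzymes had a median of 0.50 over the 12 tested, with 10 higher and 2 lower in mean. Both KO arrays lay above both WT arrays for 8 (66.7%) and below for 1 (8.3%), against 20.6% and 17.6% of all genes. Over all 16 on the array the median was 0.27, and without KO replicate 1 the 12 tested also had a median of 0.27. Pdia4, a protein disulfide isomerase of the ER lumen, read 10.60 and 10.71 in KO and 9.70 and 9.53 in WT. Both KO arrays lay well above both WT arrays and close to each other, a difference of 1.04 ± 0.15 (SE, n = 2 per group) or 2.06-fold (limma adjusted p = 0.682). Pdia4 differed from most other members in that KO replicate 2 was the higher KO array, so the difference without KO replicate 1 was 1.10.

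Fkbp11, a membrane-bound prolyl isomerase abundant in secretory cells, read 8.83 and 7.82 in KO and 7.42 and 7.60 in WT. The arrays did not overlap, but KO replicate 1 carried most of the difference of 0.82 ± 0.35 (1.76-fold), which was 0.31 without it. Creld2, a secreted ER stress-inducible factor, read 9.75 and 8.99 in KO and 8.79 and 8.54 in WT, a difference of 0.71 ± 0.29 (1.63-fold). Its other probe differed by 0.82. Both of its probes placed KO replicate 1 far above the remaining arrays and KO replicate 2 slightly above them, and without KO replicate 1 each differed by 0.32.

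Dnajc3 (p58IPK), a J-domain co-chaperone of BiP, read 8.91 and 8.66 in KO and 7.96 and 8.43 in WT, a difference of 0.59 ± 0.22 (1.51-fold), or 0.36 without WT replicate 1. Its lowest KO array was above its highest WT array by less than the gap between the WT arrays. Txndc5, a thioredoxin-domain disulfide isomerase, read 12.18 and 11.42 in KO and 11.13 and 11.33 in WT. Here the gap between KO replicate 2 and the upper WT array was small, and the difference of 0.57 ± 0.28 was 0.19 without KO replicate 1. Txndc11, a thioredoxin-domain protein of the ER membrane, read 6.74 and 6.62 in KO and 6.10 and 6.24 in WT, a difference of 0.51 ± 0.15. Its KO arrays were close together and clear of WT, and its other tested probes differed by 0.56 and 0.26, the last with overlapping arrays. The probe with 0.26 was detected on only 1 WT array, so it was tested through the KO arrays. Hsp90b1 (GRP94), the HSP90 of the ER and the member with paired ERSE copies, read 11.50 and 11.27 in KO and 10.83 and 10.95 in WT, a difference of 0.49 ± 0.16 (1.41-fold), and 0.38 without KO replicate 1. Limma adjusted p was 0.771 for each of these 6 genes.

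Dnajb9 (ERdj4), a J-domain protein induced by XBP1, differed by 0.33 ± 0.16 without overlap. Pdia6, Pdia3 and Calr, the lectin chaperone calreticulin, overlapped between the groups, with differences of 0.21, 0.16 and -0.0011. Fkbp2, a small prolyl isomerase, read lower on both KO arrays by 0.096 in the mean. Hspa5 (BiP), the central HSP70 chaperone of the ER, read 4.88 and 4.60 in KO and 4.90 and 4.52 in WT. These values were not above background, nor were those of Canx, the membrane lectin chaperone calnexin, or of Manf, a BiP cofactor, so the array holds no measurement of their change. Of the tested chaperones holding an ERSE, Hsp90b1, Creld2 and Dnajc3 did not overlap between the groups, and Calr and Pdia6 did. Both KO arrays lay above both WT arrays for 8 of all 12 tested chaperones (66.7%), against 20.6% of all genes. Edem1 and Pdia4, the members with the largest differences, held no ERSE or related element in their windows, nor did Xbp1 and Bhlha15. Whether the elements go with the differences was not tested.

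Translocon and signal peptidase genes differed less, with a median of 0.067 over the 8 tested, 5 higher and 3 lower in mean. The median was -0.037 without KO replicate 1. Sec11c, a catalytic subunit of the signal peptidase, read 8.87 and 8.50 in KO and 8.17 and 8.22 in WT. The WT arrays nearly coincided and both KO arrays lay above them, a difference of 0.49 ± 0.18 (1.41-fold, limma adjusted p = 0.771), or 0.31 without KO replicate 1. Sec61a1, the channel-forming subunit of the translocon, read 8.93 and 8.54 in KO and 8.49 and 8.36 in WT. The groups were separated by a narrow gap, and the difference of 0.32 ± 0.19 was 0.12 without KO replicate 1.

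The translocon-associated (TRAP) subunits stayed near 0. Ssr4 read 11.62 and 11.35 in KO and 11.32 and 11.33 in WT, a difference of 0.16 ± 0.16 that was 0.025 without KO replicate 1. Ssr3 read 10.95 and 10.82 in KO and 10.98 and 10.95 in WT, a difference of -0.086 ± 0.14. In both TRAP genes the closest KO and WT arrays nearly touched. Ssr2 overlapped, with a difference of -0.16. The accessory signal peptidase subunits Spcs3 and Spcs1 and the translocon subunit Sec61b overlapped as well, with differences of 0.10, -0.038 and 0.035. The other Spcs1 probe read below both WT arrays on both KO arrays, by 0.42 in the mean. In each of the 8 genes KO replicate 1 read above KO replicate 2.

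The degradation genes were the one role in which each tested member, 7 of 7, had a higher mean in KO, with a median of 0.49. Both KO arrays lay above both WT arrays for 5 (71.4%), against 20.6% of all genes. Leaving out KO replicate 1 gave a median of 0.36, and leaving out WT replicate 1 gave 0.32. Edem1, a mannosidase-like lectin that extracts misfolded glycoproteins from the folding cycle, had the largest difference of all tested members. It read 7.17 and 6.45 in KO and 5.64 and 5.52 in WT, a difference of 1.23 ± 0.27 (2.34-fold, limma adjusted p = 0.771), and 0.87 without KO replicate 1. Each KO array lay above both WT arrays by several times the gap between the WT arrays. Its other probe was not above background on any array.

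Derl3, a derlin of the retrotranslocation channel and a holder of the ERSE, read 6.48 and 5.55 in KO and 5.47 and 5.19 in WT. KO replicate 2 barely cleared WT replicate 1, and the difference of 0.69 ± 0.33 was 0.22 without KO replicate 1. Sel1l, the adaptor of the HRD1 ubiquitin ligase, read 9.56 and 9.12 in KO and 8.74 and 8.74 in WT, a difference of 0.60 ± 0.20 (1.51-fold), or 0.38 without KO replicate 1. Its other probes differed by 0.63 and 0.22, the last with overlapping arrays. The probe with 0.63 was detected on only 1 WT array, so it was tested through the KO arrays. Syvn1, the HRD1 ligase itself and an ERSE holder, read 12.80 and 12.99 in KO and 12.38 and 12.69 in WT. Like Pdia4 it was higher on KO replicate 2, with a difference of 0.36 ± 0.18 that was 0.46 when KO replicate 1 was left out and 0.21 when WT replicate 1 was.

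Edem2, the mannosidase that makes the first trimming cut on misfolded glycoproteins, had 4 tested probes. The probe that stands for the gene read 11.94 and 11.52 in KO and 11.06 and 11.41 in WT, a difference of 0.49 ± 0.22, or 0.29 without KO replicate 1 and 0.32 without WT replicate 1. Of the others, one differed by 0.74 and one by 0.19 with overlapping arrays. The remaining probe was not above background on either WT array and was at least 1.55-fold higher in KO. Derl2, another derlin, overlapped between groups, with a difference of 0.24, and so did its other tested probe, with 0.12. Herpud1, an ER membrane protein of the same complex with an ERSE-II and an ATF4-type element, overlapped too, with 0.062. The other Herpud1 probe read above both WT arrays on both KO arrays, by 0.13 in the mean. Derl1 was not above background with any of its 3 probes.

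Sensors and transcription factors were divided, with a median of -0.061 over 5 tested genes. The sign of that median rested on single arrays, being 0.059 without KO replicate 2 and 0.41 without WT replicate 1. Bhlha15 (Mist1), a transcription factor of professional secretory cells such as plasma cells and pancreatic acinar cells, read 7.34 and 6.31 in KO and 5.84 and 5.90 in WT. The WT arrays were nearly equal and KO replicate 1 stood well above KO replicate 2, for a difference of 0.96 ± 0.35 (1.94-fold) that was 0.44 without KO replicate 1. A second tested probe differed by 1.11. Xbp1, the effector of the IRE1 branch, read 12.68 and 12.25 in KO and 11.89 and 12.05 in WT, a difference of 0.49 ± 0.20 (1.41-fold), or 0.28 without KO replicate 1. The array does not show whether its probe reads the spliced or the unspliced mRNA. Limma adjusted p was 0.771 for both.

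Atf4, the main transcription factor of the PERK branch, read 9.42 and 9.18 in KO and 9.45 and 9.27 in WT, with overlapping groups and a difference of -0.061 ± 0.17. Ddit3 (CHOP), a target of ATF4, read 7.22 and 7.45 in KO and 7.76 and 7.55 in WT, a difference of -0.33 ± 0.17 (limma adjusted p = 0.771), or -0.21 without KO replicate 1. It was the one gene of this role below both WT arrays on both KO arrays, and its other probe overlapped, with -0.18. Ppp1r15a (GADD34), which recruits the phosphatase for eIF2alpha, is given because its WT arrays differed most, and was picked after its values were seen. It read 9.13 and 9.12 in KO and 10.57 and 8.19 in WT, so the KO arrays fell between WT arrays that were 2.38 apart. Ern1, the IRE1 sensor, read 4.56 and 4.43 in KO and 4.36 and 4.39 in WT, not above background on any array. Whether the roles differ from one another was not tested.

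**Figure D2:**
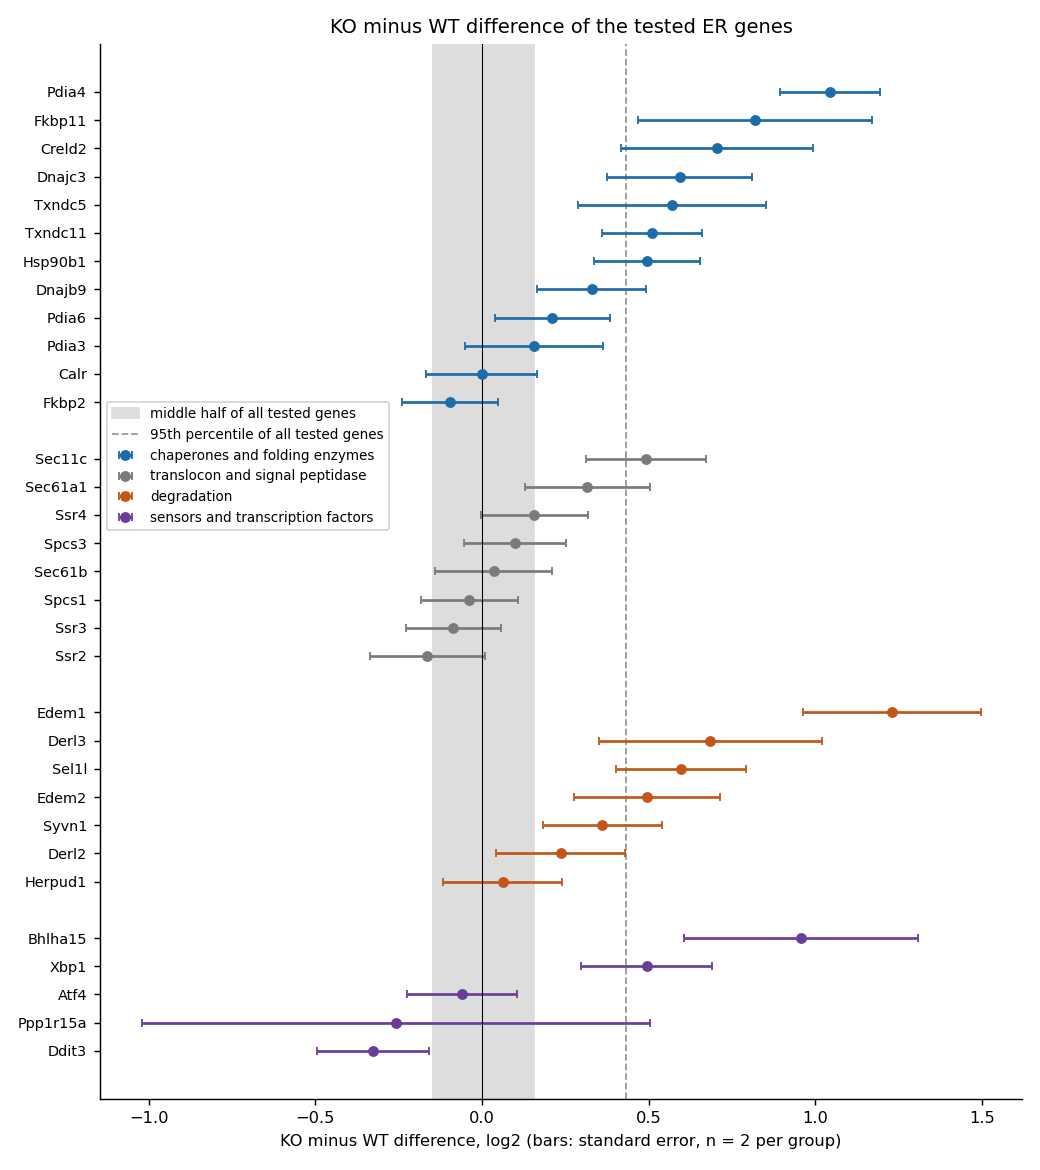
KO minus WT difference on the log2 scale (x axis) of each tested ER gene, by role, with the standard error as bars (n = 2 per group), beside the middle of the distribution of all 8712 tested genes (grey band, quartiles -0.15 to 0.16) and its 95th percentile (dashed, 0.43). Members run from -0.33 for Ddit3 to 1.23 for Edem1.

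The KO arrays were not equal. KO replicate 1 read above KO replicate 2 in 26 of 32 members (81.25%), against 48.3% of all genes tested. Set against the mean of the WT arrays, the median over the members was 0.41 on KO replicate 1 and 0.21 on KO replicate 2. On its own, KO replicate 2 read above both WT arrays in 20 of 32 members (62.5%, against 33.7% of all genes). It read below both in 6 (18.8%, against 30.5%). KO replicate 1 read above both in 23 (71.9%, against 34.1%) and below both in 4 (12.5%, against 32.7%). On KO replicate 2 alone, 9 of 12 chaperones and 6 of 7 degradation genes lay above both WT arrays. Of the translocon and signal peptidase genes 3 of 8 did, and of the sensors and transcription factors 2 of 5. Among the members, Pdia4 (1.10) and Edem1 (0.87) were farthest above the WT mean on KO replicate 2. Exocrine pancreas genes were high on KO replicate 1 and not on KO replicate 2, and liver genes were high on both, with summed intensities of 1015 and 649 in KO and 105 and 91.1 in WT. Adipocyte genes were high on KO replicate 2, with summed intensities of 68.1 and 1467 in KO and 55.7 and 47.5 in WT, and Adipoq read 5.18 and 9.69 in KO. Among the liver genes Alb, Fgb and Cps1 were not above background on any array. The same held for Fabp4, Plin1 and Retn among adipocyte genes and for Prss2 and Prss3 among pancreas genes. The tissue origin of this RNA and its part in the ER genes were not tested.

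**Figure D3:**
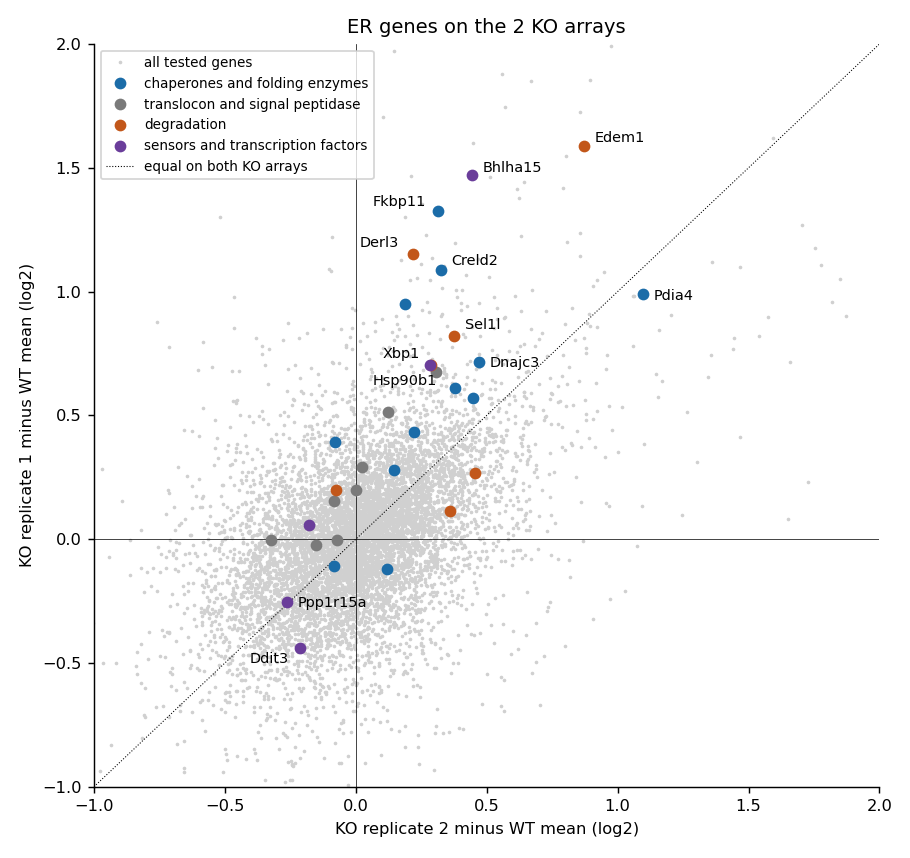
Difference from the WT mean on the log2 scale, KO replicate 2 on the x axis and KO replicate 1 on the y axis, for the ER genes (coloured by role) and all tested genes (grey, those beyond the axes not drawn). Most ER genes lie above the dotted line of equality, and Pdia4 lies below it.

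Plasma cell markers outside the gene set were set beside these values, since ER genes are abundant in those cells. Of 9 on the array, 5 were tested, with a median of 0.27, 4 higher and 1 lower in mean. Their summed background-corrected intensity was 12167 and 9109 in KO and 7120 and 8559 in WT, so KO replicate 1 was the highest and KO replicate 2 close to WT replicate 2. Mzb1, an ER cochaperone of immunoglobulin-producing cells, read 12.75 and 12.27 in KO and 11.94 and 12.06 in WT, a difference of 0.51 ± 0.21. Pou2af1, a B lineage coactivator, differed by 0.37 with overlapping arrays, and Slamf7, a surface receptor of plasma cells, by 0.27. Irf4 and Tnfrsf17 (BCMA), with 0.095 and -0.061, overlapped. The defining markers Jchain and Prdm1 were not above background on any array, and Sdc1 (CD138) was detected on 1 KO array only. B cell markers had a median of -0.22, with 1 of 7 higher and 6 lower in mean. Set against the WT mean, the B cell median was -0.52 on KO replicate 1 and 0.11 on KO replicate 2. T cell markers had a median of -0.12 over 5. Red pulp macrophage markers had a median of 0.010 over 6. The part of these cells in the ER genes was not tested.

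Further genes of the same pathways, outside the 43, are given as lists, and whether these lists differ from the members was not tested. Other ER folding enzymes had a median of 0.040, with 8 of 13 higher and 5 lower in mean. Both KO arrays lay above both WT arrays for 4 of 13 (30.8%) and below for 2 (15.4%), against 20.6% and 17.6% of all genes. Selenos, a selenoprotein of the retrotranslocation complex, differed by 0.29 and with its other tested probe by 0.55, both without overlap. Other translocation and glycosylation genes had a median of 0.083, with 11 of 18 higher in mean. Srprb, a subunit of the signal recognition particle receptor, read 9.09 and 8.70 in KO and 7.80 and 8.52 in WT, a difference of 0.74 ± 0.29 that was 0.38 without WT replicate 1. Its other tested probe went the opposite way, with -0.26 and both KO arrays below both WT arrays, so the probes of Srprb disagree. Sec63 differed by 0.30 and with its other tested probe by 0.23, both without overlap. The oligosaccharyltransferase subunits Rpn2 and Dad1 differed by 0.26 and -0.24.

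Vesicle export genes had a median of 0.18, with 11 of 14 higher and 3 lower in mean, and 3 (21.4%) higher in KO at an unadjusted p under 0.05, against 3.49% of all genes, and 0 lower, against 2.51%. Kdelr3, a receptor that returns ER-resident chaperones from the Golgi, read 6.56 and 6.49 in KO and 5.62 and 5.77 in WT, a difference of 0.83 ± 0.15 (1.78-fold). Lman1 (ERGIC-53), a cargo lectin, read 8.60 and 8.23 in KO and 7.66 and 7.58 in WT, a difference of 0.79 ± 0.18 (1.73-fold). Sec24d, a cargo adaptor of the COPII coat, read 5.92 and 5.78 in KO and 5.24 and 5.16 in WT, a difference of 0.65 ± 0.15 (1.57-fold). In these 3 genes the KO arrays stood clear of the WT arrays, and without KO replicate 1 the differences were 0.80, 0.61 and 0.58. Mcfd2, the soluble partner of LMAN1, had a difference of -0.24. Limma adjusted p was 0.771 for all 4 of these genes.

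Other degradation genes had a median of 0.16, with 8 of 9 higher in mean. Both KO arrays lay above both WT arrays for 5 (55.6%), against 20.6% of all genes. Man1b1, Ube2j1 and Erlec1, a mannosidase, a ubiquitin-conjugating enzyme and a lectin of this route, differed by 0.32, 0.33 and 0.30. The probes of Erlec1 disagree, since its other tested probes differed by 0.20 with overlapping arrays and by -0.20 with both KO arrays below both WT arrays. A list of ATF4 and CHOP targets together with other stress genes, among them the PERK gene Eif2ak3 and membrane-bound transcription factors, also had a median of 0.16, with 16 of 23 higher and 7 lower in mean, and their named members pointed both ways. Ddit4 (REDD1), an inhibitor of mTORC1, read 8.91 and 9.27 in KO and 10.15 and 10.02 in WT, a difference of -0.996 ± 0.18 (1.99-fold lower in KO). Chac1, a glutathione-degrading enzyme, read 6.70 and 5.90 in KO and 5.41 and 5.11 in WT, a difference of 1.04 ± 0.30, or 0.64 without KO replicate 1. Cebpb and Vldlr differed by 0.42 and 0.43. None of these genes passed the adjusted threshold.

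**Figure D4:**
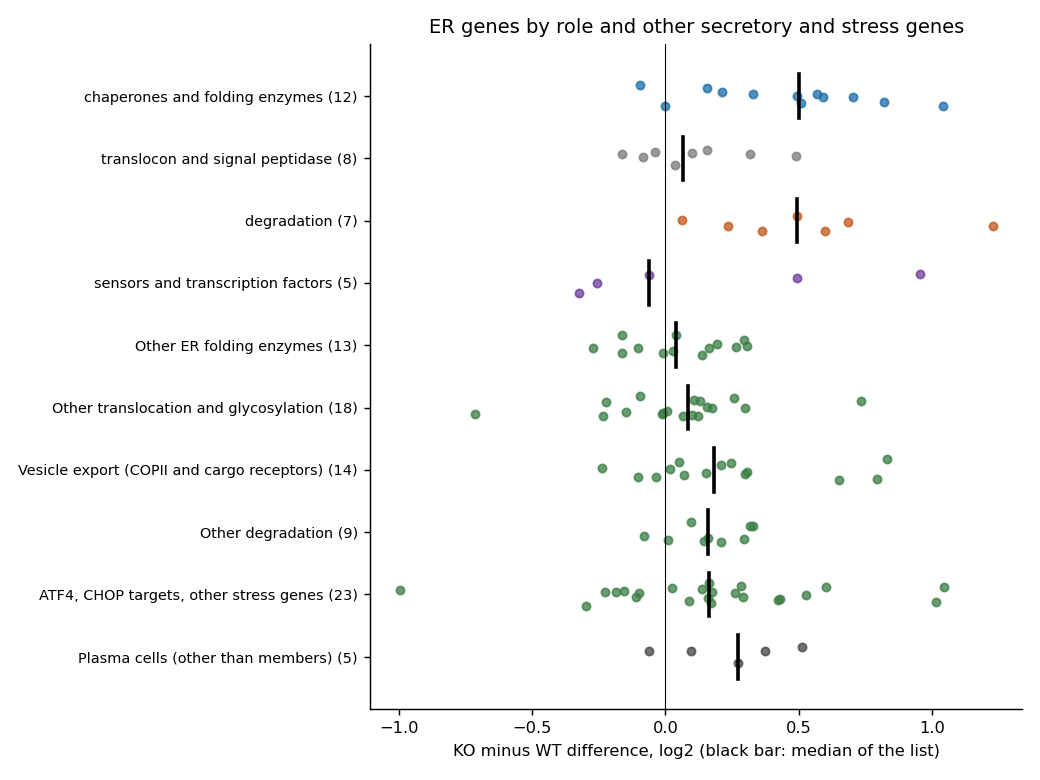
KO minus WT difference on the log2 scale (x axis) of each tested gene in the roles of the ER gene set in the other pathway lists and among plasma cell markers, with 1 point per gene and the median of each list as a bar. The medians of chaperones (0.50) and degradation genes (0.49) lie to the right of those of the other lists.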

How the data were processed

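Spleen RNA of 2 Snd1 KO and 2 WT mice was measured on bead arrays. The deposited intensity values are linear signals that the authors exported from GenomeStudio without normalization or background subtraction. The detection columns are deposited as a fraction that runs high for bright probes (rank correlation 0.975 to 0.991) and was therefore taken as 1 minus p. The authors' value table, used as an alternative, held log2 values; by comparison with the signals these were quantile normalized, not background-corrected and not centred (medians 6.82), in which 1 probe did not match.

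Here the neqc function of limma 3.58.1 (R 4.3.3) applied normexp background correction, with negative controls estimated from the detection values and an offset of 16, then quantile normalization and log2, so fold changes of dim genes are understated. The groups were compared unpaired with lmFit and eBayes over all 12493 tested probes, with Benjamini-Hochberg adjustment and a threshold of 0.05. An exact permutation test of 2 arrays against 2 cannot go below p = 0.333 and was not used. Each gene is represented by its brightest probe. Of 25697 probes, 23978 had 1 symbol, 0 several and 1719 none here. Summed marker levels add the intensities above the offset.

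Members and lists were chosen with earlier results of these data known. Values per array are given for up to 5 members per role with the largest difference among those whose groups do not overlap. They are also given for anchors of each branch, and for up to 4 genes of smallest p per further list. Txndc11 and Hsp90b1, whose groups do not overlap either, and Ppp1r15a are given beyond this rule. Neither slide nor scan batch is known from the sources. Background correction, offset, normalization, filter, moderation, replicate block and each array left out were varied.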

Additional observations from a re-analysis of the deposited data

How the results depend on the processing

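No ER gene passed the adjusted threshold under any alternative, the smallest adjusted p being 0.219 with a trended, robust prior. Of 251 values of the 18 named tested members, 249 kept their direction, and Atf4 reversed without KO replicate 2 (0.059) and without WT replicate 1 (0.028). All of the 18 but Atf4 were picked for groups that do not overlap, so leaving out 1 array could not reverse them. Over all 32 tested members, the direction changed for 4 without KO replicate 1 and for 1 without KO replicate 2. It changed for 4 without WT replicate 1 and for 2 without WT replicate 2. The number of probes past the threshold, 2 in the comparison as reported, was 0 with no background correction, with the authors' value table, with no filter, with no moderation and with the replicate block, 4 with an offset of 50 and 8 with a trended, robust prior. It ran from 0 to 16 with single arrays left out, 16 without WT replicate 1 and 0 without each of the others. Replicate numbers are not known to pair the mice, and deviations of same-numbered arrays correlated at r = 0.188. With no filter the member median was 0.16, that of chaperones 0.27 and that of sensors 0.028, which reversed it. With single arrays left out, the chaperone median ran from 0.27 to 0.59, the degradation median from 0.32 to 0.70, the translocon median from -0.037 (KO replicate 1 left out) to 0.18, and the sensor median from -0.18 to 0.41, positive on leaving out KO replicate 2 (0.059) or WT replicate 1 (0.41). Atf4 ran from -0.18 to 0.059. Snd1 passed the threshold with a trended, robust prior (adjusted p = 0.0461) and without WT replicate 1 (adjusted p = 0.0379). The causes were not tested. With 2 arrays a group, their number limits the precision.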
